A study of Homo sapiens with 6 samples.

Results

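The mRNAs of 6 genes of the kinase and sliding-clamp branch of the DNA damage checkpoint were measured in HMC-1.2 cells treated with inhibitors of the sphingosine kinases SPHK1 and SPHK2. They were chosen by symbol as the kinases ATR and CHEK1 (CHK1), the clamp subunits RAD9A, RAD1 and HUS1, and the clamp loader RAD17, and are 6 of the 84 cell cycle genes on the qPCR array. HMC-1.2 is a human neoplastic mast cell line that carries the KIT mutations D816V and V560G, as the sample labels write them, and all groups share this background. The groups are vehicle (0.1% DMSO), SPHK1-I, which is SKI-178 at 5 µM, and SPHK2-I, which is ABC294640 at 50 µM, each for 24 h and each with 2 samples, numbered 1 and 2. Because the doses are unequal, the treatments are compared as given. The sources used here do not say whether the duplicates came from separate cultures, so p-values measure only the spread between these samples. The array held 0 of 10 markers of mast cells and other blood cells looked for, so the cell type could not be checked against its markers.

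ATR is a kinase that is recruited to single-stranded DNA at stalled replication forks and resected breaks, and CHK1 is the kinase that it activates in order to hold back origin firing and entry into mitosis. The 9-1-1 clamp is a ring of RAD9A, RAD1 and HUS1, 1 of each, which RAD17 loads onto the junction of single- and double-stranded DNA with the small subunits of replication factor C. The loaded clamp brings in the activator of ATR, so the clamp, its loader and the kinases act in 1 pathway. Much of its control lies in protein phosphorylation, which mRNA levels do not measure.

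The threshold cycle (Ct) is the PCR cycle at which a product crosses a set signal, on a log2 scale on which a higher value means less mRNA. Levels are given as 2 to the power of −ΔCt, with the mean of the authors' 4 reference genes (B2M, GAPDH, HPRT1 and RPLP0) set to 1000. Changes are log2 differences between the mean −ΔCt of 2 groups, tested with limma over all 84 genes and called at an adjusted p below 0.05. In this bulk RNA, fewer expressing cells and less mRNA per cell cannot be told apart.

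SPHK1-I sample 2 stood apart from the other 5 samples. Its reference genes had a mean Ct of 24.3, against 22.1 to 22.7 in the others, and 37 of its 84 genes had a Ct over 30, against 9 to 13. For 5 of the 6 members the Ct was over 30 in this sample, against at most 1 member in each of the others. The difference between duplicates had an SD over genes of 0.484 with SPHK1-I, 0.166 with vehicle and 0.129 with SPHK2-I. The reference genes also moved apart, with log2 changes against vehicle of 0.61 (SPHK1-I) and 0.42 (SPHK2-I) for B2M and of −0.35 and −0.52 for HPRT1, relative to the mean of all 4. The signs of small changes turned with the reference, as given beside each gene.

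With vehicle, RAD1 had the highest mRNA level of the members and HUS1 the lowest. The levels were 31.0 ± 0.770 for RAD1, 22.5 ± 0.909 for CHEK1, 14.2 ± 1.41 for RAD17, 8.79 ± 0.926 for ATR, 6.64 ± 0.773 for RAD9A and 5.16 ± 0.379 for HUS1 (SD, n = 2). No neighbours in this order overlapped between the vehicle duplicates, and each step was between 1.28-fold (RAD9A over HUS1) and 1.61-fold (RAD17 over ATR). Among the 84 genes the members ranked from 45 (RAD1) to 73 (HUS1), counted from the highest level. The sources used here give no efficiency of the assays and levels by qPCR are not counted per length, so the order between genes is a description.

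The order changed in 2 places with the inhibitors. CHEK1 lay above RAD17 in both vehicle samples and in SPHK1-I sample 1, and below it in SPHK1-I sample 2 and in both SPHK2-I samples. RAD9A lay above HUS1 in both vehicle and both SPHK2-I samples, and below it in both SPHK1-I samples. The other 3 steps of the order, RAD1 over CHEK1, RAD17 over ATR and ATR over RAD9A, held in 6 of 6 samples.

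**Figure D1:**
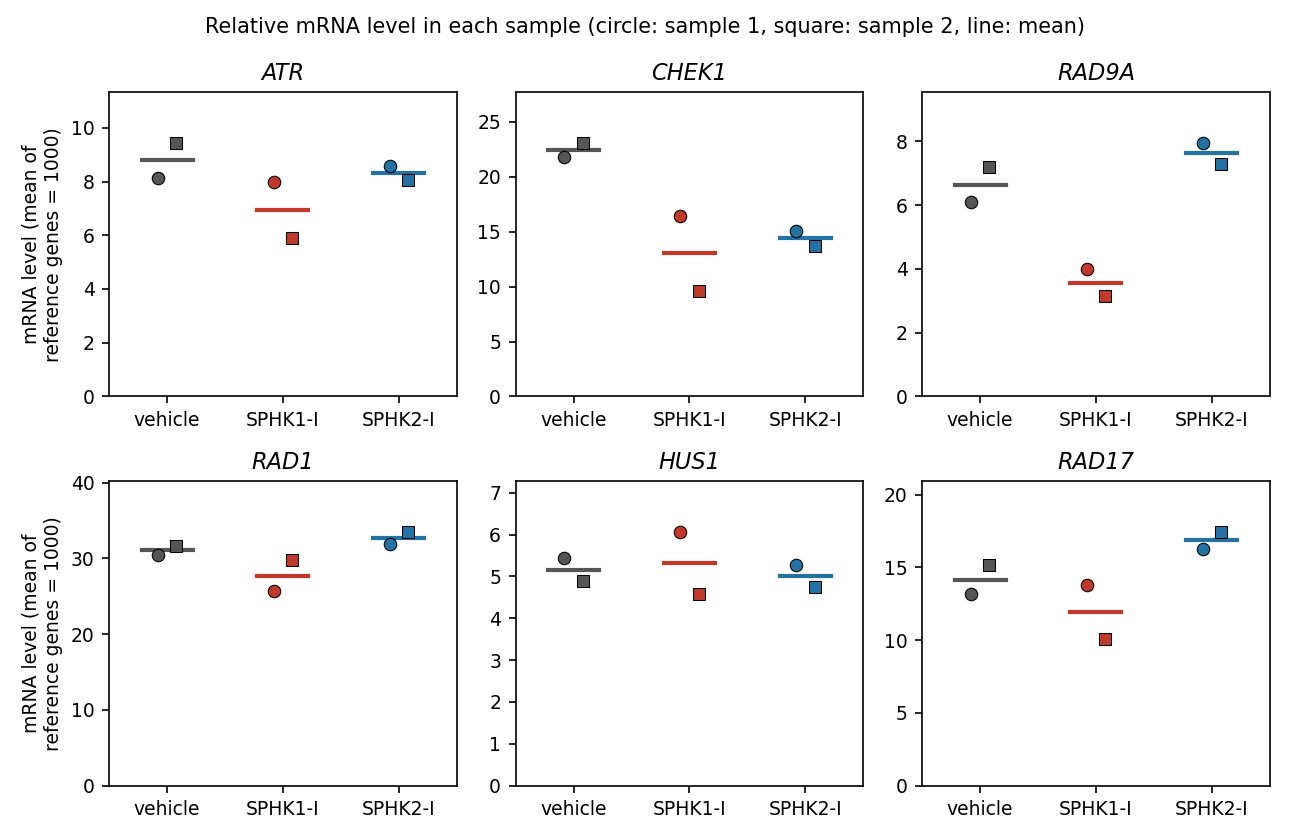
mRNA level of each of the 6 genes (vertical axes, 1000 is the mean of the 4 reference genes, each panel with its own scale from 0) in the 2 samples of each group (circles and squares), with the group mean as a line. RAD9A was at 3.99 and 3.13 with SPHK1-I, below the other 4 samples, and CHEK1 was below both vehicle samples in all 4 inhibitor samples.

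Of the 6 members, 2 fell with SPHK1-I (CHEK1 and RAD9A) and 0 rose. On the whole array 35.7% of the 84 genes were called in this comparison (31% as lower), so the members' share was close to that of all genes. The median change of the members was −0.31 and that of all 84 genes was −0.35. With SPHK2-I, 0 of the 6 members were called by limma and 1 (CHEK1) had an unadjusted p below 0.05, while 28.6% of all genes were called. The members' median was 0.02, against −0.25 for all genes. In the direct test of SPHK2-I minus SPHK1-I, 1 member (RAD9A) was called as higher with SPHK2-I, with 15.5% of all genes called as higher, and the medians were 0.26 and 0.13. Both comparisons with vehicle use the same vehicle samples. Without vehicle sample 1 or 2 the calls of members and lists were lost in all 3 comparisons, and without SPHK2-I sample 1 or 2 in those that use SPHK2-I. Yet without vehicle sample 1 or 2, CHEK1 changed by −0.88 or −0.79 and RAD9A by −1.02 or −0.79 with SPHK1-I. The difference of RAD9A between the inhibitors, which uses no vehicle sample, stayed at 1.11. A group with 1 sample gives no spread of its own, so the error then came from the other groups. Here these included the SPHK1-I duplicates, which differed most. Calls lost or gained in such fits thus do not measure how far a change rests on 1 sample.

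**Figure D2:**
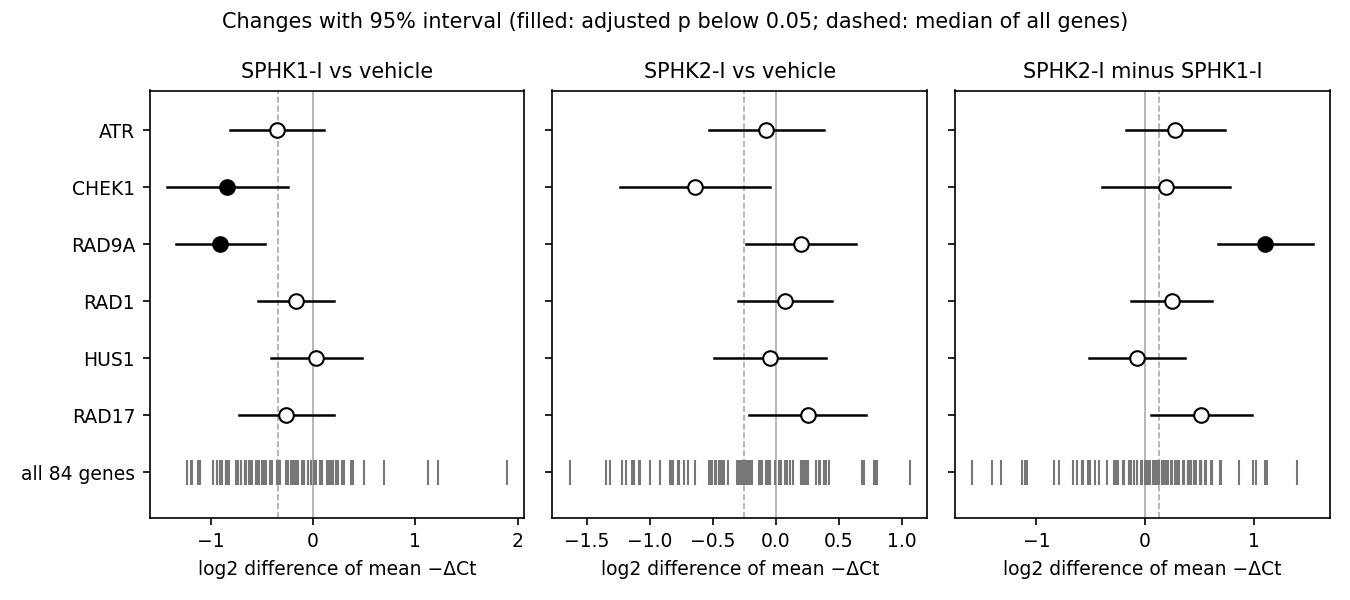
Log2 difference of mean −ΔCt (horizontal axes) for the 6 genes in the 3 comparisons, with 95% intervals from limma as lines, filled points for calls, and ticks for all 84 genes. CHEK1 at −0.84 and RAD9A at −0.90 were called with SPHK1-I, no member was called with SPHK2-I, and RAD9A at 1.11 was called between the inhibitors.

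ATR, the kinase at the head of the pathway (chromosome 3, 142449235 to 142578733 in GRCh38.p14), was measured at 8.14 and 9.45 with vehicle, 7.98 and 5.90 with SPHK1-I, while SPHK2-I gave 8.59 and 8.06. Both SPHK1-I samples lay below the vehicle samples, the first of them narrowly, and the SPHK2-I samples overlapped with vehicle. The change was −0.35 with SPHK1-I (SE 0.20, limma adjusted p = 0.199) and −0.08 with SPHK2-I (SE 0.20, limma adjusted p = 0.767). The 95% interval with SPHK1-I, −0.81 to 0.10, leaves room for a fall to 0.570 of the vehicle level as well as for no change. The inhibitors' changes differed by 0.28 (limma adjusted p = 0.331). The change with SPHK1-I was below 0 under all 8 other references and was called with B2M alone (−0.96, limma adjusted p = 0.000118). It was −0.57 without SPHK1-I sample 1 and −0.14 without sample 2. The change with SPHK2-I was above 0 under 6 of the 8 references, and it was called in opposite directions with ACTB alone (0.48, limma adjusted p = 0.0256) and B2M alone (−0.50, limma adjusted p = 0.0377). The difference between the inhibitors was called with ACTB alone (0.54, limma adjusted p = 0.0148). It was 0.50 without SPHK1-I sample 1 and 0.06 without sample 2.

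CHEK1, which encodes the effector kinase CHK1 (chromosome 11, 125625136 to 125681124), had levels of 21.8 and 23.1 with vehicle, 16.4 and 9.62 with SPHK1-I, while SPHK2-I gave 15.1 and 13.7. All 4 inhibitor samples lay below both vehicle samples, and the samples of the inhibitors overlapped, with SPHK1-I sample 2 the lowest of the 6. CHEK1 fell 1.79-fold with SPHK1-I, by a log2 change of −0.84 (SE 0.25, 95% interval −1.43 to −0.24, limma adjusted p = 0.0352). With SPHK2-I the change was −0.64 (SE 0.25, 95% interval −1.24 to −0.05), which did not pass the test (limma adjusted p = 0.0917). The SE is shared by all 3 groups, while the SD of −ΔCt between duplicates was 0.545 with SPHK1-I, 0.058 with vehicle and 0.096 with SPHK2-I. A call with SPHK1-I alone thus does not set the 2 inhibitors apart. The changes with the inhibitors differed by 0.19, with a 95% interval from −0.40 to 0.79 (limma adjusted p = 0.587), so a difference of either sign lay within the error. Under 7 of the 8 other references this difference was above 0, and with ACTB alone it was called (0.455, limma adjusted p = 0.0360). The size with SPHK1-I rested on which duplicate was used, as it was −0.45 without SPHK1-I sample 2 and −1.22 without sample 1. Without vehicle sample 1 or 2 the call was lost, at changes of −0.88 and −0.79. It was also lost without either SPHK2-I sample, neither of which enters this change. The fall with SPHK2-I, which uses no SPHK1-I sample, stayed at −0.64 without either of those. Over 8 other references the change remained below 0 in both comparisons, between −1.45 and −0.49 with SPHK1-I and between −1.07 and −0.09 with SPHK2-I. The call with SPHK1-I was lost with GAPDH, HPRT1 or RPLP0 alone, without B2M, and with the median gene as reference (limma adjusted p between 0.0947 and 0.176), and with B2M alone the fall with SPHK2-I was called (limma adjusted p = 7.60e-05).

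RAD9A encodes the clamp subunit whose tail binds the activator of ATR (chromosome 11, 67391986 to 67398412). Its levels were 6.09 and 7.19 with vehicle, 3.99 and 3.13 with SPHK1-I, while SPHK2-I gave 7.95 and 7.28. The SPHK1-I samples were the 2 lowest of the 6, and both SPHK2-I samples lay above both vehicle samples, the second of them narrowly. RAD9A fell 1.87-fold with SPHK1-I (log2 change −0.90, SE 0.19, 95% interval −1.34 to −0.47, limma adjusted p = 0.0114), which was the 11th lowest of the 84 changes. With SPHK2-I its change was 0.20 (SE 0.19, limma adjusted p = 0.419), and this sign turned with B2M or RPLP0 alone as the reference (−0.23 and −0.05). With ACTB or HPRT1 alone it was called as higher, at 0.76 and 0.72 (limma adjusted p = 0.00802 and 0.0138). RAD9A was 2.15-fold higher with SPHK2-I than with SPHK1-I (log2 difference 1.11, 95% interval 0.67 to 1.54, limma adjusted p = 0.0103). Of the 84 differences between the inhibitors, this one ranked 3 from the highest. Over 8 other references the change with SPHK1-I was between −1.51 and −0.56 and the difference between inhibitors was between 0.89 and 1.36. The call with SPHK1-I was lost with GAPDH, HPRT1 or RPLP0 alone and without B2M (limma adjusted p between 0.0542 and 0.130), and that of the difference with RPLP0 alone (limma adjusted p = 0.203). Without vehicle sample 1 or 2 the call with SPHK1-I was lost, at changes of −1.02 and −0.79. The difference between inhibitors lost its call without either vehicle sample, though it uses neither and stayed at 1.11. Its call was also lost without SPHK2-I sample 1 or 2, at 1.04 and 1.17.

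RAD1, the clamp subunit with the highest mRNA level (chromosome 5, 34905260 to 34915504), was measured at 30.5 and 31.6 with vehicle, 25.6 and 29.8 with SPHK1-I, while SPHK2-I gave 32.0 and 33.5. The groups did not overlap, with SPHK1-I the lowest and SPHK2-I the highest, yet the steps were small. The changes were −0.17 with SPHK1-I (95% interval −0.54 to 0.20, limma adjusted p = 0.410) and 0.08 with SPHK2-I (95% interval −0.30 to 0.45, limma adjusted p = 0.726). Against ACTB, GAPDH, HPRT1, the 3 reference genes other than B2M, or the median gene, the value with SPHK1-I was above 0, and against B2M or RPLP0 alone the value with SPHK2-I was below 0. It was called lower with SPHK1-I against B2M (−0.78, limma adjusted p = 0.00135) and higher with SPHK2-I against HPRT1 (0.59, limma adjusted p = 0.0358).

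HUS1, the subunit that completes the ring (chromosome 7, 47963288 to 47979615), had levels of 5.43 and 4.90 with vehicle, 6.06 and 4.57 with SPHK1-I, while SPHK2-I gave 5.28 and 4.74. All 3 groups overlapped, and both the highest and the lowest sample were SPHK1-I samples. The changes were 0.03 with SPHK1-I (95% interval −0.41 to 0.47, limma adjusted p = 0.900) and −0.04 with SPHK2-I (95% interval −0.49 to 0.40, limma adjusted p = 0.845), and their signs turned with the reference. Against B2M alone both were called lower, at −0.58 and −0.48 (limma adjusted p = 0.0131 and 0.0458), and against HPRT1 alone the one with SPHK2-I was called higher (0.47, limma adjusted p = 0.0383).

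RAD17, the loader (chromosome 5, 69369293 to 69414801), had levels of 13.2 and 15.2 with vehicle, 13.8 and 10.1 with SPHK1-I, while SPHK2-I gave 16.3 and 17.4. The SPHK1-I samples overlapped with vehicle, and both SPHK2-I samples were the highest of the 6. The changes were −0.26 (SE 0.20, limma adjusted p = 0.317) and 0.25 (SE 0.20, limma adjusted p = 0.359), of which the first turned above 0 with ACTB, GAPDH or HPRT1 alone and the second below 0 with B2M alone. With B2M alone the first was called lower (−0.87, limma adjusted p = 0.000376), and with ACTB or HPRT1 alone the second was called higher (0.81 and 0.77, limma adjusted p = 0.00607 and 0.0122). The change with SPHK1-I was −0.49 without SPHK1-I sample 1 and −0.04 without sample 2. The change with SPHK2-I, which uses no SPHK1-I sample, stayed at 0.25 without either of them. The difference between the inhibitors was 0.52 (95% interval 0.05 to 0.98), which did not pass the test over all genes (limma adjusted p = 0.0941). It was above 0 under all 8 other references and passed under 4 of them, with all 5 housekeeping genes or with ACTB, B2M or HPRT1 alone (limma adjusted p between 0.00587 and 0.0367). Without SPHK1-I sample 1 it was 0.74, and without sample 2 it was 0.29.

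Counting by overlap alone, the samples of SPHK1-I and vehicle were apart for 4 members (ATR, CHEK1, RAD9A and RAD1, all lower), and lower without overlap for 57.1% of all genes. For SPHK2-I and vehicle, CHEK1 was lower without overlap, as were 60.7% of all genes, and RAD9A, RAD1 and RAD17 were higher, as were 25%. Between the inhibitors, ATR, RAD9A, RAD1 and RAD17 were higher in both SPHK2-I samples, as were 34.5% of all genes. With 2 samples against 2, an exact permutation test of a single gene cannot go below p = 0.333.

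The plot of changes under each reference sets these values side by side. CHEK1 was below 0 at all 9 references in both comparisons, RAD9A was below 0 at all 9 with SPHK1-I, and the other members lay on both sides of 0 in at least 1 comparison. The calls of the whole array moved with the reference too. With SPHK1-I, 71 of the 84 genes were called with B2M alone, beside 6 members, and 1 gene with RPLP0 alone, beside 0 members. With SPHK2-I, 34 of the 84 were called with HPRT1 alone (4 members), 27 with ACTB alone (3 members) and 58 with B2M alone (3 members).

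**Figure D3:**
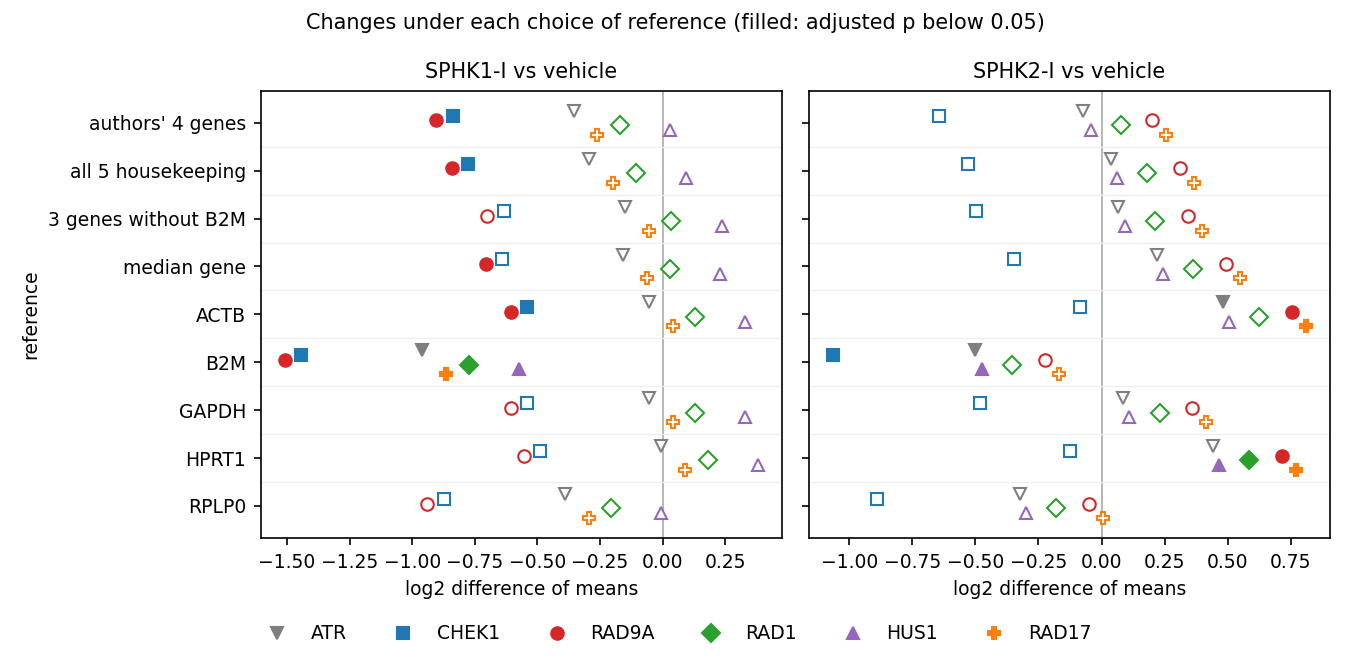
Log2 difference of group means (horizontal axes) of the 6 genes against vehicle under the authors' 4 reference genes and 8 other references (vertical axis), with filled points at a limma adjusted p below 0.05 over the 84 genes. With SPHK1-I, CHEK1 and RAD9A stayed to the left of the other 4 members at every reference, as a reference shifts all genes alike, from −0.49 and −0.56 with HPRT1 to −1.45 and −1.51 with B2M.

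The 3 clamp subunits form a ring of equal parts, so the ratios of their mRNAs were compared within each sample. Such a ratio is a difference of 2 Ct values of 1 sample and uses no housekeeping gene. It was tested with limma with 1 member as the only reference, adjusted over the other 83 genes. Of 7 ratios, 2 changed with SPHK1-I, 1 with SPHK2-I, and 3 differed between the inhibitors. Many of the ratios share a member, so they are not separate results.

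The ratio of RAD9A to HUS1 separated SPHK1-I most clearly. It was 1.12 and 1.47 with vehicle, 0.658 and 0.685 with SPHK1-I, while SPHK2-I gave 1.51 and 1.54. Both SPHK1-I samples lay below 1 and the other 4 samples above it, and the SPHK1-I duplicates were close to each other although sample 2 stood apart in its Ct values. The ratio fell 1.91-fold with SPHK1-I (log2 change −0.93, SE 0.19, limma adjusted p = 0.00214), and 44.6% of the other 83 genes also fell relative to HUS1. It was 2.27-fold higher with SPHK2-I than with SPHK1-I (log2 difference 1.18, SE 0.19, limma adjusted p = 0.000762), where 24.1% of the other genes were higher relative to HUS1. With SPHK2-I against vehicle the change was 0.25 (limma adjusted p = 0.341). With 1 sample left out at a time, the change with SPHK1-I ranged from −1.13 to −0.74 and the difference between the inhibitors from 1.15 to 1.21.

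The ratio of RAD9A to RAD1 pointed the same way with more spread. It was 0.200 and 0.228 with vehicle, 0.156 and 0.105 with SPHK1-I, while SPHK2-I gave 0.249 and 0.217. SPHK1-I had the lowest 2 values, without overlap. The change of −0.74 with SPHK1-I (95% interval −1.32 to −0.15) did not pass the test (limma adjusted p = 0.108), and 2.41% of the other 83 genes were called in either direction relative to RAD1. The difference of 0.86 between the inhibitors also missed it (95% interval 0.27 to 1.45, limma adjusted p = 0.0575). Without SPHK1-I sample 1 or sample 2 the change with SPHK1-I was −1.02 or −0.45, and the difference was 1.14 or 0.58.

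The ratio of RAD1 to HUS1 did not separate the groups. It was 5.61 and 6.45 with vehicle, 4.23 and 6.51 with SPHK1-I, while SPHK2-I gave 6.05 and 7.06, and all 3 ranges overlapped. The changes were −0.20 (95% interval −0.68 to 0.28, limma adjusted p = 0.478) and 0.12 (95% interval −0.36 to 0.60, limma adjusted p = 0.691). Within the clamp, the ratio that passed the test was thus the one of RAD9A to HUS1.

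The loader was set against each clamp subunit in the same way. RAD17 over RAD9A was 2.16 and 2.11 with vehicle, 3.46 and 3.21 with SPHK1-I, while SPHK2-I gave 2.05 and 2.39. The SPHK1-I samples lay above the other 4. The ratio rose 1.56-fold with SPHK1-I (log2 change 0.64, SE 0.14, limma adjusted p = 0.00944), as 50.6% of the other 83 genes did relative to RAD9A, and it was smaller in the SPHK2-I samples (log2 difference from SPHK1-I −0.59, limma adjusted p = 0.00659), as were 91.6% of them. Without vehicle sample 2 the first call was lost (limma adjusted p = 0.0685), and without SPHK2-I sample 1 the second (limma adjusted p = 0.0820).

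RAD17 over HUS1 was 2.42 and 3.10 with vehicle, 2.27 and 2.20 with SPHK1-I, while SPHK2-I gave 3.08 and 3.67. The SPHK1-I samples were the 2 lowest. It was 1.51-fold higher with SPHK2-I than with SPHK1-I (log2 difference 0.59, SE 0.19, limma adjusted p = 0.0338), as 24.1% of the other 83 genes were relative to HUS1. Against vehicle it did not pass the test with either inhibitor (limma adjusted p = 0.242 and 0.269). The call between the inhibitors was lost without SPHK2-I sample 1 or 2 (limma adjusted p = 0.170 and 0.427). RAD17 over RAD1 was between 0.338 and 0.538 over the 6 samples, both of these being SPHK1-I samples, and passed no test (limma adjusted p = 0.828, 0.650 and 0.613).

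CHEK1 over ATR, the ratio of the effector to the apical kinase, was 2.68 and 2.45 with vehicle, 2.06 and 1.63 with SPHK1-I, while SPHK2-I gave 1.75 and 1.70. All 4 inhibitor samples lay below both vehicle samples. The ratio fell 1.48-fold with SPHK2-I (log2 change −0.57, SE 0.15, limma adjusted p = 0.0287), with 28.9% of the other 83 genes called lower relative to ATR. With SPHK1-I the change of −0.48 missed the threshold (SE 0.15, limma adjusted p = 0.0649), with 13.3% of the genes called lower. The changes differed between the inhibitors by −0.09 (95% interval −0.45 to 0.28, limma adjusted p = 0.657). The call with SPHK2-I was lost without vehicle sample 1 or 2 and without SPHK2-I sample 1 or 2, at limma adjusted p values of up to 0.192.

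**Figure D4:**
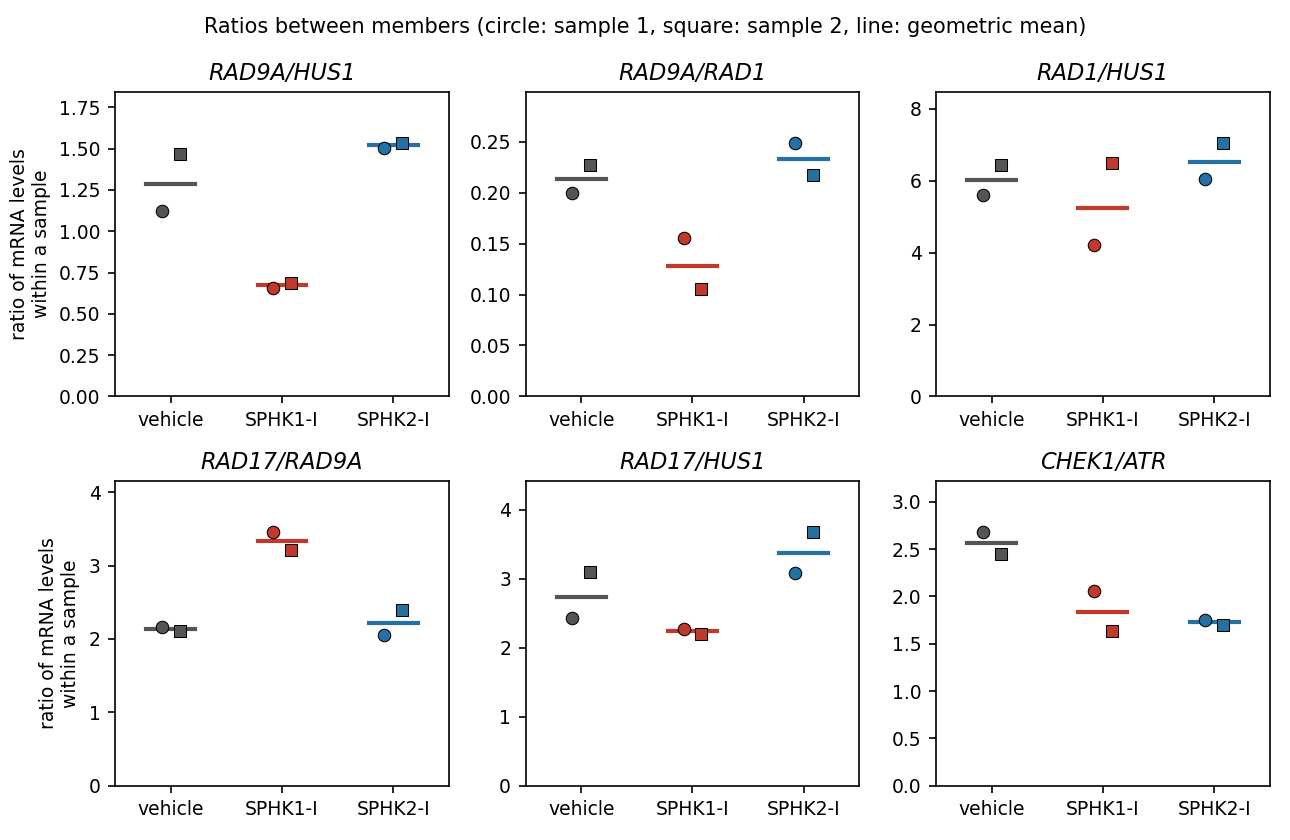
Ratio of the mRNA levels of 2 members within each sample (vertical axes from 0, no unit) in the 2 samples of each group (circles and squares), with the geometric mean as a line, for 6 of the 7 ratios tested. RAD9A over HUS1 was below 1 in both SPHK1-I samples and above 1 in the other 4, and CHEK1 over ATR was lower in all 4 inhibitor samples than in both vehicle samples.

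How alike the members varied was described by the SD of the Ct difference of a pair over the 6 samples, which needs no reference and was given no test. Over all 3486 pairs of the 84 genes the median SD was 0.455, and over the 15 pairs of members it was 0.329. ATR and RAD17 were the most alike, with an SD of 0.164 (rank 143 from the lowest of all pairs). ATR with HUS1 (0.224), ATR with RAD1 (0.235), RAD1 with RAD17 (0.250) and HUS1 with RAD1 (0.261) followed. The pair of members that differed most was RAD9A and HUS1, 2 subunits of the same ring, at 0.571, above the median of all pairs.

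The gene of the array most like CHEK1 was CHEK2, the effector kinase of the ATM arm, with an SD of 0.0954, followed by the nuclear import factor KPNA2 at 0.109. ATR was most like the ubiquitin ligase scaffold CUL2 (0.0829), the mitotic entry kinase WEE1 (0.0876) and the cyclin CCND2 (0.121). RAD17 was most like CDC16, a subunit of the anaphase-promoting complex, at 0.0542, then the kinase ABL1 (0.0927) and the pocket protein RBL2 (0.158). RAD1 was most like the ligase scaffold CUL3 (0.121), the E2F partner TFDP2 (0.144) and the resection factor RBBP8 (0.183). HUS1 was most like the ligase scaffold CUL1 (0.120), the CDK-activating kinase CDK7 (0.129) and WEE1 (0.144). RAD9A had less close neighbours, with the helicase loader CDC6 at 0.188 and the G1 kinase CDK4 at 0.254 among its nearest 3. All these SDs rest on the same 6 samples.

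Other genes of the checkpoint were counted in 3 lists beside the members, written with earlier results of these data known. Over the whole array, 31% of the 84 genes were called lower with SPHK1-I. With SPHK2-I 20 of the 84 were called lower, and 15.5% were called higher in the direct test. Of 5 genes of the ATM arm and of break ends (ATM, CHEK2, MRE11A, now named MRE11, NBN and RBBP8), 1 fell with SPHK1-I and 1 with SPHK2-I, in both cases CHEK2 (log2 changes −0.85 and −0.70, limma adjusted p = 0.0166 and 0.0369). RBBP8 was higher with SPHK2-I than with SPHK1-I (0.61, limma adjusted p = 0.0287). The medians of the list were −0.55, −0.27 and 0.29 in the 3 comparisons. Beside these values, CHEK1 was at −0.84 and −0.64. Over the 8 other references the fall of CHEK2 was called under 3 with SPHK1-I and 2 with SPHK2-I, and the difference of RBBP8 under 6.

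Of 5 genes whose proteins act under CHK1 (the phosphatases CDC25A and CDC25C, WEE1, and the kinases CDK1 and CDK2), 4 fell with SPHK1-I, beside 31% of all genes. The changes were −1.24 for CDC25A, −1.10 for CDK1, −0.91 for CDK2 and −0.70 for CDC25C (limma adjusted p of at most 0.0311). With SPHK2-I 3 fell, by −1.31 for CDC25A, −1.13 for CDK1 and −0.82 for CDK2 (limma adjusted p of at most 0.0317). Between the inhibitors 0 of the 5 were called by limma, and 0 had an unadjusted p below 0.05. The medians were −0.91, −0.82 and 0.09. Over the 8 other references the fall with SPHK1-I was called under 3 for CDC25A, 4 for CDK1, 6 for CDK2 and 2 for CDC25C, and with GAPDH or RPLP0 alone 0 of these 4 were called (limma adjusted p of up to 0.155). With SPHK2-I it was called under 3 for CDC25A, 8 for CDK1 and 6 for CDK2. Leaving out SPHK1-I sample 1 or sample 2 gave changes with SPHK1-I of −1.85 or −0.62 for CDC25A, and of −1.47 or −0.73 for CDK1.

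Of 5 genes of helicase loading (MCM2, MCM3, MCM4, MCM5 and CDC6), 5 fell with SPHK1-I, between −1.19 for CDC6 and −0.75 for MCM5, beside 31% of all genes. With SPHK2-I 1 fell, MCM4 at −0.82. In the direct test 4 were higher with SPHK2-I, with CDC6 at 1.00, MCM2 at 0.69, MCM3 at 0.61 and MCM5 at 0.55 (limma adjusted p of at most 0.0404). With SPHK1-I, 4 of the falls were called under 7 of the 8 other references, all but RPLP0 alone, and the fall of MCM5 under 3. That of MCM4 with SPHK2-I was called under 6. In the direct test CDC6 was called under 7, and MCM2, MCM3 and MCM5 under 5, not with GAPDH or RPLP0 alone or without B2M (limma adjusted p of up to 0.599). RAD9A, at −0.90 with SPHK1-I and 1.11 in the direct test, had values within or above the range of this list.

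The sequences before the transcription starts of the 2 members that fell, and of RAD1 as a clamp subunit that did not pass the test, were read from RefSeq windows (GRCh38.p14) to show what they share. A window of 250 bases was found for 5 of the 6 members, all but HUS1. RAD9A lies at chr11:67391736-67391985 (plus strand), CHEK1 at chr11:125625974-125626223 (plus strand, 1 of its 3 windows) and RAD1 at chr5:34915505-34915754 (minus strand). Capitals mark matches on either strand to the E-box CACGTG, the CCAAT box CCAAT and the GC box GGGCGG, motifs chosen after the sequences had been seen.
RAD9A: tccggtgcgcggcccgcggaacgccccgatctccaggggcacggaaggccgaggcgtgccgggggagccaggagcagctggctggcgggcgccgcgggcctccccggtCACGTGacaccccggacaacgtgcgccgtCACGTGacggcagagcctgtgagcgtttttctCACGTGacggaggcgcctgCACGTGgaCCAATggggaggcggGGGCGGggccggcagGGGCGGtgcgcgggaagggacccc
CHEK1: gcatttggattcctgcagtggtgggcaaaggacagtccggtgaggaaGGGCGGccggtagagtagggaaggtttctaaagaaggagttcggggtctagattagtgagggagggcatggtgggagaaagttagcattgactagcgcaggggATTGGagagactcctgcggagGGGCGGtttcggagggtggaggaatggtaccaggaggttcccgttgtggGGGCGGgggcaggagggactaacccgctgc
RAD1: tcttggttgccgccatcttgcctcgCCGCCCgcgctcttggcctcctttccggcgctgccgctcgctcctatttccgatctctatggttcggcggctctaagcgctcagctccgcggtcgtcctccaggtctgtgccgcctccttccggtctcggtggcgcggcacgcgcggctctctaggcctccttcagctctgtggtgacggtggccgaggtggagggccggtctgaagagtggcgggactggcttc
The RAD9A window held 4 E-boxes, 1 CCAAT box and 2 GC boxes. The CHEK1 window held 1 CCAAT box and 3 GC boxes and no E-box, and the RAD1 window held 1 GC box alone. The 3 CHEK1 windows overlap, and the one at chr11:125626106-125626355 held 3 CCAAT boxes and 3 GC boxes. Over 35116 windows of the same length, 6.34% held an E-box, 32% a CCAAT box and 42.6% a GC box, and 5 windows (0.0142%) held 4 or more E-boxes. The limit of 4 equals the count in the RAD9A window, so this share is no test. An E2F core (TTTCGCGC, TTTGGCGC, TTTCCCGC or TTTGCCGC, either strand), present in 2.79% of all windows, was in 0 of the 9 windows of the members. The 9 include the overlapping ones of CHEK1 and 3 of RAD17. The windows of these 2 genes lie inside the gene positions given above, not before them. These matches describe the letters of the reference genome and were not tested against the mRNA values.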

How the data were processed

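mRNA was measured by SYBR qPCR array (84 genes of interest, 5 housekeeping genes, 7 control wells) in 6 samples. Per the file headers, the authors' Ct table holds log2-scale values per gene and sample, made with the web tool of the array's maker (version not given in the sources used here). In the authors' ΔCt table (log2) the mean of RPLP0, HPRT1, GAPDH and B2M is subtracted, and ACTB is not part of it, since the ΔCt of the first 4 add up to 1e-06 or less per sample. The deposited relative levels are a ratio, 2 to the power of −ΔCt. The authors' fold tables hold their own comparisons and were not used. No Ct is above 35, and 1 gene has a Ct of 35. Qiagen's genomic DNA control was at 35 in all samples. Depth does not apply to qPCR, and the number of samples limits the precision.

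The −ΔCt values were fitted with limma 3.58.1 in R 4.3.3 (3 groups in 1 model, moderated variances with 4.33 prior and 3 residual degrees of freedom, Benjamini-Hochberg adjustment over the 84 genes, no replicate block). Ratios between members were fitted on Ct with 1 member as the only reference and adjusted over the other 83 genes. The code was tested on simulated data. Same-numbered samples did not deviate together (correlations of −0.258, −0.105 and −0.0415 over genes), so no pairing was used. Alternatives changed the reference, the Ct limit, the samples, the model or the test. Named genes are the members, the housekeeping genes, the genes of 3 pathway lists that pass a test (the others being counted) and, for each member, the 3 genes with the smallest SD of the Ct difference. The members and lists were chosen with earlier results of these data known. Symbols were matched to RefSeq by accession (84 of 84), which also gave positions and promoter windows (GRCh38.p14). Some genes are not reported here.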

Additional observations from a re-analysis of the deposited data

Results flagged for a closer look

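The direct test of SPHK2-I minus SPHK1-I passed for 1 member and for 3 ratios between members. The ratios are made of RAD9A, HUS1 and RAD17 and share values with each other and with RAD9A, so these are not separate results. RAD9A differed by 1.11 on the log2 scale (limma adjusted p = 0.0103), and 15.5% of all 84 genes were called as higher in this test. Both SPHK1-I samples of RAD9A lay below both vehicle samples, as for 57.1% of all genes. Both SPHK2-I samples lay above them, the second narrowly, as for 25% of all genes. The change of RAD9A with SPHK2-I against vehicle, 0.20, did not pass the test (limma adjusted p = 0.419). Its sign turned with B2M or RPLP0 alone as the reference. RAD9A/HUS1 differed by 1.18 (limma adjusted p = 0.000762) and RAD17/HUS1 by 0.59 (limma adjusted p = 0.0338), and 24.1% of the other 83 genes were higher relative to HUS1. RAD17/RAD9A differed by −0.59 (limma adjusted p = 0.00659), as 91.6% of the other genes were lower relative to RAD9A. The calls of RAD9A and RAD17/HUS1 were lost without either SPHK2-I sample, and that of RAD17/RAD9A without SPHK2-I sample 1. The doses of the inhibitors differed, and the part of dose in these differences was not tested. With 2 samples per group, no single sample could be tested as an outlier within its group.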

How the results depend on the processing

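Limits: 2 samples per group, inhibitor doses that differ, 1 SPHK1-I sample with later Ct values, and reference genes that moved apart set what these data can show. The number of members called with SPHK1-I (2) became 6 with B2M alone as reference, 1 with the median gene or with only the groups compared in the model, and 0 with GAPDH, HPRT1 or RPLP0 alone, without B2M, or with Ct limited to 30. With SPHK2-I (0 called) it became 3 with ACTB or B2M alone, 4 with HPRT1 alone, 1 with Ct limited to 30 or a weight per sample, and 2 with only the groups compared. Between the inhibitors (1 called) it became 2 with all 5 housekeeping genes or with B2M or HPRT1 alone, 4 with ACTB alone, and 0 with RPLP0 alone, Ct limited to 30 or only the groups compared. The whole array moved as well: with SPHK1-I, 71 of 84 genes were called with B2M alone and 15 with the median gene, and with SPHK2-I 34 with HPRT1, 27 with ACTB and 55 with only the groups compared. Leaving out 1 sample gave 0 to 4, 0 to 2 and 0 to 4 members called in the 3 comparisons, with 0 when either vehicle sample was left out. The ratios called (2, 1 and 3) became 0, 0 and 0 with Ct limited to 30, and ranged over 1 to 5, 0 to 1 and 1 to 5 when 1 sample was left out. Where a group had 1 sample left, it was assumed to vary like the others. The SPHK1-I duplicates varied more than those (SD of the difference 0.484, against 0.166 with vehicle and 0.129 with SPHK2-I), so counts without an SPHK1-I sample rest on too small a spread. The replicate block changed none of these counts of members called (2, 0 and 1) and gave 2, 1 and 3 ratios called. The methods' t-test with Benjamini-Hochberg adjustment called 0, 0 and 0 members on either scale. Unadjusted, it called 0, 1 and 1 on −ΔCt and 1, 1 and 1 on the level scale.

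The limit of 30 sets 5 members of SPHK1-I sample 2, RAD9A of SPHK1-I sample 1 and HUS1 of both SPHK2-I samples to that value. The reference genes were not limited, and their mean Ct was 24.3 in SPHK1-I sample 2, against 22.1 to 22.7 in the other samples. A limited gene therefore reads higher in SPHK1-I sample 2 whatever its level, and the ratio of 2 limited genes is set to 1. The reversals and lost calls under this limit follow in part from its design, and the size of that part was not tested. They are thus not read as changes of the mRNA levels. The reversals under it were 0.51 for ATR, 0.64 for RAD9A, 0.22 for RAD17 and 1.25 for CDC25C with SPHK1-I, 0.28 for HUS1 with SPHK2-I, and −0.59 for ATR, −0.32 for CHEK1 and −0.44 for RAD9A between the inhibitors. For ratios they were 0.81 for RAD9A/RAD1, −0.42 for RAD17/RAD9A and 0.39 for RAD17/RAD1 with SPHK1-I. With SPHK2-I they were −0.08 for RAD9A/HUS1, −0.21 for RAD1/HUS1 and −0.025 for RAD17/HUS1, and between the inhibitors −0.68 for RAD9A/RAD1, 0.48 for RAD17/RAD9A, −0.21 for RAD17/RAD1 and 0.27 for CHEK1/ATR. Other references reversed small changes. With SPHK1-I, RAD1 became 0.13 with ACTB or GAPDH, 0.18 with HPRT1, 0.035 without B2M and 0.0275 with the median gene. HUS1 became −0.58 with B2M and −0.005 with RPLP0, and RAD17 became 0.04 with ACTB or GAPDH and 0.09 with HPRT1. With SPHK2-I, ATR became 0.036 with all 5 genes, 0.48 with ACTB, 0.085 with GAPDH, 0.44 with HPRT1, 0.0667 without B2M and 0.22 with the median gene. HUS1 became 0.061, 0.51, 0.11, 0.47, 0.0917 and 0.24 with the same references. With B2M alone RAD9A became −0.23, RAD1 −0.36 and RAD17 −0.17, and with RPLP0 alone RAD9A became −0.05 and RAD1 −0.18. Between the inhibitors, CHEK1 became −0.015 with RPLP0, and HUS1 became 0.18 with ACTB, 0.10 with B2M, 0.085 with HPRT1 and 0.015 with the median gene. The cause of the reversals with other references was not tested beyond the shift of the reference itself.

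Leaving out 1 sample reversed the following, given as ranges over the samples left out: HUS1 with SPHK1-I (−0.17 to 0.23), ATR (−0.18 to 0.0326) and HUS1 (−0.12 to 0.0335) with SPHK2-I, CHEK1 (−0.19 to 0.58) and HUS1 (−0.28 to 0.13) between the inhibitors, RAD1/HUS1 (−0.51 to 0.11) and RAD17/RAD1 (−0.43 to 0.24) with SPHK1-I, RAD17/RAD9A (−0.0598 to 0.17) with SPHK2-I, and RAD17/RAD1 (−0.0622 to 0.61) and CHEK1/ATR (−0.25 to 0.0827) between the inhibitors. None of these passed the test with all samples.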
